A study of Mus musculus with 8 samples.

Results

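The phagocyte NADPH oxidase is the enzyme with which neutrophils and macrophages make superoxide. Its catalytic subunit is encoded by Cybb and sits in the membrane as a heterodimer with the product of Cyba. When a phagocyte is activated, cytosolic subunits, among them those encoded by Ncf1 and Ncf4, and a small GTPase of the Rac family, mainly Rac2 in neutrophils, join this pair, and electrons then pass from NADPH to oxygen. The proton channel encoded by Hvcn1 carries the charge-balancing protons. The complex is known as a product of maturing phagocytes, and loss of Cybb, Cyba, Ncf1 or Ncf4 is a known cause of chronic granulomatous disease.

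The 6 genes Cyba, Cybb, Ncf1, Ncf4, Rac2 and Hvcn1 were chosen by name and are 6 of the 34199 genes counted. All 6 passed the filter on low counts, as did 13080 genes in all. They were measured by bulk RNA sequencing in immortalised granulocyte-macrophage progenitors (iGMPs) of C57Bl/6 mice, in 8 libraries that formed 4 groups of 2. All cells carried ER-HOXA9, a HOXA9 transcription factor that is active while estradiol is present, and a GFP reporter under the lysozyme promoter (Lys-GFP), and all grew with stem cell factor. The uninduced state was sampled at 0 h with estradiol at 150 ng/ml. For CAF-1 OFF, cells stayed in the same estradiol and received 500 µM IPTG for 48 h, which switched on an shRNA against Chaf1b, a subunit of the histone chaperone CAF-1. IPTG control cells also had estradiol and 500 µM IPTG for 48 h. By the study's methods, the control for IPTG was a vector with a stuffer sequence. HOXA9 OFF cells were washed free of estradiol and cultured without it for 48 h. The shRNA lines were clonal, and the labels give neither the clone behind each replicate number nor the vector in the uninduced and HOXA9 OFF libraries. A legend of the study mentions independent sub-clones for its RNA-seq of all groups but the IPTG control, without linking them to replicate numbers or saying if groups shared a sub-clone.

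Totals of gene counts ran from 14044284 to 22423837 per library, and 3 counts, taken as the detection floor, stood for 0.128 to 0.212 CPM, counts scaled to the TMM-adjusted library total. Chaf1b, the target of the shRNA, was at 96.7 and 100.2 CPM in uninduced, 95.04 and 101.6 in IPTG control, 18.7 and 9.72 in CAF-1 OFF and 48.3 and 41.0 in HOXA9 OFF cells. Reads outside any gene were 14.6% of uniquely aligned reads in IPTG control replicate 1 and 5.30 to 7.79% in the other libraries. All 7 listed progenitor markers, among them Kit, Cd34 and Mpo, were above the floor in every library, summing to 10493 to 16079 CPM and, in HOXA9 OFF cells, to 5973 to 8233 CPM. Over uninduced cells, HOXA9 inactivation lowered 3 of the 7 and raised 1, beside 22.1% of all tested genes called lower and 25.2% called higher. Cd34 was at 250.8 and 242.1 CPM after 1871 and 1710 in uninduced cells (edgeR FDR 1.67e-05). Kit was at 197.9 and 167.0 after 637.2 and 612.3 (FDR 4.08e-05). Mean CPM went up for 3 of the 7, from 240.6 to 550.1 for Ms4a3, 360.7 to 585.0 for Elane and 1196 to 1615 for Prtn3. CAF-1 suppression raised 1 of the 7 and lowered 0, beside 10.5% and 3.5% of all tested genes. Because these are bulk samples, fewer cells that express a gene and less RNA per cell cannot be told apart.

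The stretch around the transcription start is shown first, because transcription factors described later are known to bind such stretches. A RefSeq promoter entry on GRCm38.p6 was at hand for 3 of the 6 genes, Cyba, Cybb and Ncf1. Each line gives 250 bases before and 30 bases after the annotated start, 5′ to 3′ on the strand of the gene, and all 3 genes are on the minus strand. Capitals mark GGAA, the core of ETS-family sites, read on either strand, together with the longer GAGGAA that holds it. The windows are chr8:122432911-122433190 for Cyba, chrX:9469295-9469574 for Cybb and chr5:134229596-134229875 for Ncf1.
Cyba: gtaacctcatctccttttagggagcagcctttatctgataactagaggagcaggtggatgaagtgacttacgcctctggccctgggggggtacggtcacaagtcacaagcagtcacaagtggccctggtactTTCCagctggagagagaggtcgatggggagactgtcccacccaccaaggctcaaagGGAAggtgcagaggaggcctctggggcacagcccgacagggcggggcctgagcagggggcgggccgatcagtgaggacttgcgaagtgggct
Cybb: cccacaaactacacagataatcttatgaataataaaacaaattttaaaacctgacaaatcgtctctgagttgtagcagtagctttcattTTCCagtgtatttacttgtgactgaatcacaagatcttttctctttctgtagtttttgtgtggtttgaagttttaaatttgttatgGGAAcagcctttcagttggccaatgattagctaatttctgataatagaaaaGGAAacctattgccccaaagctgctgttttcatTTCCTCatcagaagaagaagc
Ncf1: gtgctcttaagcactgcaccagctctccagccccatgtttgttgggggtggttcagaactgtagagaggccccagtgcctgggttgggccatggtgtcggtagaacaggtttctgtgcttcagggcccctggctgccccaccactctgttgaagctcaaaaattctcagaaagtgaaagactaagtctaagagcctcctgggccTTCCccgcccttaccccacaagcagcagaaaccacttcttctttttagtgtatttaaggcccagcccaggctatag

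Counted on both strands, GGAA occurred 4 times in the Cybb window, 2 times in that of Cyba and 1 time in that of Ncf1, and it is a frequent word, found in 95.1% of the 32531 promoter windows of this length. GAGGAA, the purine-rich form known from PU.1 sites, was present in the Cybb window on the minus strand, starting 10 bases after the start, where it overlaps a GGAA, and 26.1% of all windows hold it. CCAAT began 56 bases upstream of the Cybb start (position -56), and 36.0% of windows hold it. Neither GAGGAA nor CCAAT was in the Cyba or Ncf1 window. TTNCNNAA, a loose form of C/EBP sites, TATAAA and TGATTNAT, a joint HOX and MEIS word, were in none of the 3 windows and in 39.2%, 13.1% and 3.09% of all windows. These matches describe the letters of the windows and say nothing about binding.

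In uninduced cells, 5 of the 6 genes were already transcribed at 57.6 CPM or more, while Cybb was at the edge of detection. Rac2 was at 529.7 and 484.6 CPM, Cyba at 371.4 and 250.7, and Ncf1, the organiser of the cytosolic complex, at 289.0 and 242.5. Ncf4, the cytosolic subunit that binds phosphoinositides, was at 126.6 and 103.1 CPM and Hvcn1 at 57.6 and 75.3. Cybb had 7 and 4 counts, which are 0.311 and 0.171 CPM with exact Poisson 95% intervals of 0.125 to 0.642 and 0.0466 to 0.438. These intervals and the floor cover counting error only, since PCR copies were not told apart. The membrane partner and the cytosolic parts were thus present at the RNA level in cells that had almost no RNA for the catalytic subunit.

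Levels of different genes were compared per kilobase of the longest protein-coding transcript. On that scale the uninduced mean was 410.4 CPM per kilobase for Cyba, 167.0 for Rac2, 96.2 for Ncf1, 78.5 for Ncf4, 23.7 for Hvcn1 and 0.0508 for Cybb (SD 112.6, 10.5, 11.9, 11.3, 4.45 and 0.0209, n = 2). Ncf1 and Ncf4 were the only neighbours in this order whose means lay closer than the sum of their SDs. Cyba, the heterodimer partner, exceeded Cybb 7478 and 9191 times per length in the 2 uninduced libraries. Rac1, the widely expressed relative of Rac2, was at 212.8 CPM per kilobase.

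**Figure D1:**
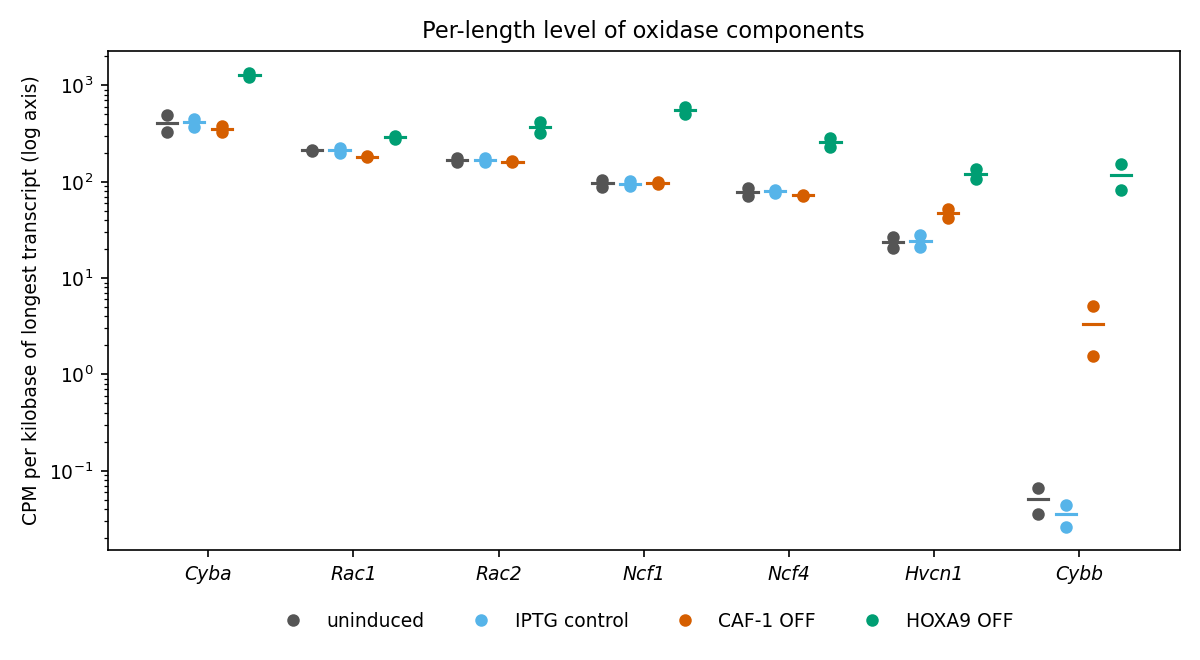
CPM per kilobase of the longest protein-coding transcript (log axis) for the 6 oxidase genes and for Rac1; points are libraries, colours are the 4 groups and bars are means of 2. Cyba was highest in every group, and Cybb rose from 0.0508 in uninduced to 116.9 in HOXA9 OFF cells, next to Hvcn1 at 121.3.

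IPTG and 48 h of culture with the control vector gave no call among the 6 genes. Rac2 was at 542.4 and 483.5 CPM in IPTG control cells, Cyba at 343.9 and 283.9, Ncf1 at 280.0 and 249.5, Ncf4 at 120.5 and 112.1, Hvcn1 at 59.0 and 77.9, and Cybb at 0.212 and 0.123 (3 and 2 counts). Each of these pairs overlapped the uninduced pair. The edgeR quasi-likelihood test called 0 of 13080 genes (0%) at an FDR under 0.05 with at least a 1.5-fold change. Without adjustment, 100 genes had an edgeR p under 0.05, DESeq2 called 4, and neither number included an oxidase gene. Those 100 are fewer than a level of 0.05 would give over 13080 genes with no change. The edgeR test was thus conservative in this comparison, and its 0 calls do not show that IPTG had no effect. For 5 genes the 95% interval of the fold lay between 0.739 and 1.43, but for Cybb it ran from 0.0275 to 17.5, so its counts cannot exclude a large change there.

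After CAF-1 suppression, Cybb and Hvcn1 rose and the other 4 genes did not pass the test. Cybb then reached 7.31 and 24.6 CPM (139 and 470 counts), above all 4 control libraries. Its log2 fold change over uninduced cells was 6.02 (SE 0.85, edgeR quasi-likelihood FDR 0.00634), the 85th highest of the 13080, with a 95% interval of the fold between libraries of 16.4 to 255.8. The counts alone gave a ratio of 66.6 with an exact binomial 95% interval of 36.9 to 134.1, for counting error only. CAF-1 OFF replicate 2 had 3.36 times the Cybb of replicate 1 and the lower Chaf1b of its group. A link between Chaf1b and Cybb levels was not tested, since the group has 2 libraries.

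Hvcn1 came to 119.4 and 146.2 CPM, again above all 4 control libraries. Its mean went from 66.5 ± 12.5 CPM in uninduced to 132.8 ± 18.96 CPM after CAF-1 suppression (SD, n = 2), a log2 fold change of 1.00 (SE 0.20, edgeR FDR 0.0173). These 2 of 6 genes stand beside 10.5% of all tested genes that were called higher and 3.5% called lower, and the median log2 fold change was -0.01 over the 6 and 0.01 over all tested genes.

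The remaining genes kept levels within or near the control range. With CAF-1 suppressed, Ncf1 was at 276.7 and 261.3 CPM, between both uninduced libraries. Rac2 at 497.1 and 487.2 CPM and Ncf4 at 105.1 and 106.3 CPM also lay inside their uninduced pairs, and Cyba was at 247.9 and 285.0 CPM, one library just below and one within. The intervals were narrow: the 95% interval of the fold over uninduced cells was 0.813 to 1.26 for Ncf1 (FDR 0.942), 0.770 to 1.22 for Rac2 (FDR 0.855), 0.736 to 1.15 for Ncf4 (FDR 0.568) and 0.628 to 1.17 for Cyba (FDR 0.441; all edgeR). A rise of 1.5-fold or more in any of these genes lies outside its interval. Per length, Cyba exceeded Cybb 212.6 and 72.8 times in the CAF-1 OFF libraries.

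Against IPTG control cells, which share the IPTG and the 48 h, the CAF-1 OFF result was the same in its calls. For Cybb the log2 fold change was 6.55 (SE 0.99, edgeR FDR 0.00906), with a 95% interval of the fold of 18.8 to 464.2, and for Hvcn1 it was 0.96 (SE 0.21, FDR 0.0218). The Cybb counts alone gave a ratio of 97.3, with an exact binomial 95% interval of 41.5 to 300.7 that covers counting error only. Of all tested genes, 9.56% were called higher and 3.2% lower. The log2 fold changes of Cyba, Ncf1, Ncf4 and Rac2 were -0.24, 0.02, -0.14 and -0.06, with FDR from 0.417 to 0.922. Both comparisons use the same CAF-1 OFF libraries.

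The 2 calls in CAF-1 OFF cells rested on few libraries. Without uninduced replicate 1, neither gene was called over uninduced cells (log2 fold change 6.48, FDR 0.0611 for Cybb; 0.81, FDR 0.115 for Hvcn1), and without CAF-1 OFF replicate 2 Hvcn1 was not called (0.84, FDR 0.126) and Cybb was, with a log2 fold change of 4.89. Over IPTG control cells both calls were lost without IPTG control replicate 1 (Cybb 6.93, FDR 0.0622; Hvcn1 0.75, FDR 0.135) and without IPTG control replicate 2 (Cybb 6.19, FDR 0.0753; Hvcn1 1.17, FDR 0.0724), and without CAF-1 OFF replicate 2 Hvcn1 was not called (0.80, FDR 0.153) and the log2 fold change of the still called Cybb was 5.42. In these edgeR fits the lone library of a group is assumed to vary like the other groups.

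When HOXA9 was inactivated, all 6 genes rose, beside 25.2% of tested genes called higher and 22.1% called lower. The median log2 fold change was 2.03 over the 6 and 0.01 over all tested genes. In each of the 6, both HOXA9 OFF libraries lay above the other 6 libraries.

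Cybb reached 721.0 and 390.3 CPM (13294 and 7875 counts). This was a log2 fold change of 11.14 (SE 0.83, edgeR FDR 3.45e-05), the 19th highest of the 13080, with a 95% interval of the fold between libraries of 591.9 to 8587. The count ratio over uninduced cells was 2286, and its exact binomial 95% interval of 1277 to 4580 again covers counting error only. The catalytic subunit thereby came close to Hvcn1 per length, at 116.9 ± 49.2 and 121.3 ± 21.8 CPM per kilobase (SD, n = 2), and their order turned when all exons of a gene were counted as its length (95.7 and 95.5). Cyba exceeded Cybb 8.78 and 15.02 times there.

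Among the cytosolic subunits, Ncf1 was at 1658 and 1396 CPM, a log2 fold change of 2.52 (SE 0.14, edgeR FDR 1.67e-05). It passed Rac2 and Rac1 in level per length, at 552.7 CPM per kilobase beside 372.1 and 288.8. Ncf4 was at 413.7 and 335.3 CPM, with a log2 fold change of 1.71 (SE 0.14, edgeR FDR 5.12e-05).

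Cyba, the membrane partner, reached 1010 and 935.3 CPM, a log2 fold change of 1.64 (SE 0.20, edgeR FDR 0.000273). Hvcn1 was at 383.3 and 296.9 CPM and changed by 2.35 (SE 0.21, FDR 7.19e-05). Rac2 was at 1277 and 982.0 CPM and had the lowest change of the 6, 1.16 (SE 0.14, FDR 0.000338), or 2.23-fold.

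**Figure D2:**
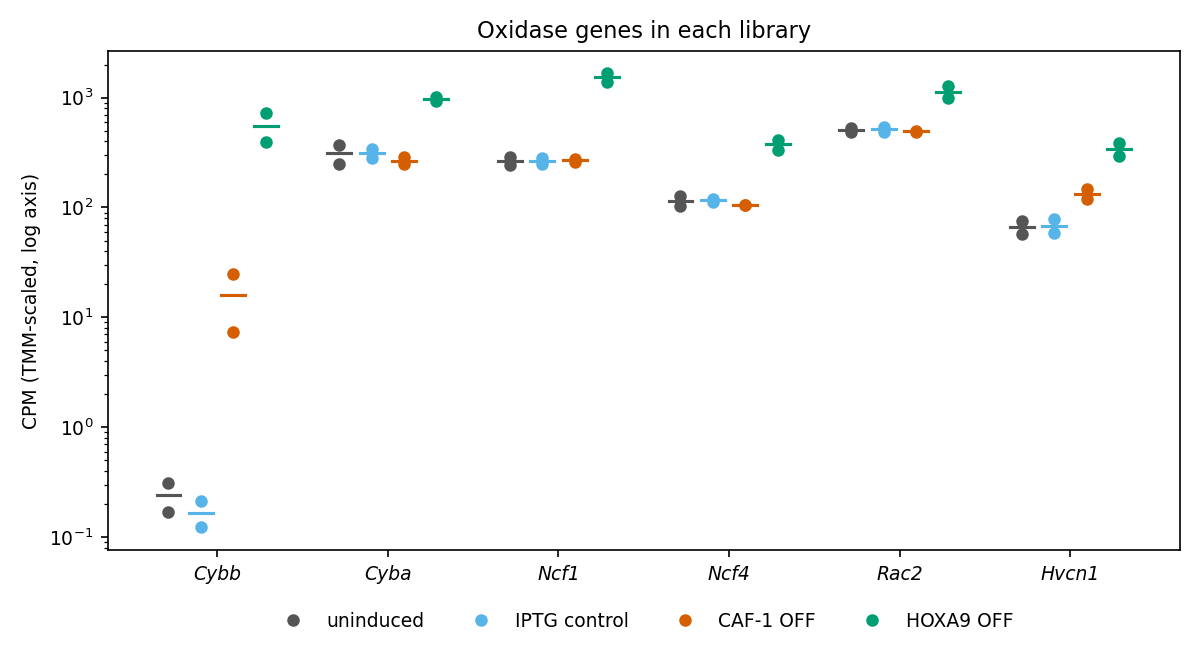
TMM-scaled CPM (log axis) of the 6 oxidase genes in each of the 8 libraries; points are libraries, colours are groups and bars are means of 2. HOXA9 OFF libraries were highest for every gene, and CAF-1 OFF libraries stood apart from the controls for Cybb (7.31 and 24.6 CPM) and Hvcn1 (119.4 and 146.2 CPM).

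Set against each other, CAF-1 OFF cells had lower levels than HOXA9 OFF cells of all 6 genes, beside 21.4% of tested genes called lower and 22.2% called higher. The difference was 5.12 on the log2 scale for Cybb, 2.51 for Ncf1, 1.87 for Cyba, 1.83 for Ncf4, 1.36 for Hvcn1 and 1.20 for Rac2 (edgeR FDR 0.000247, 2.88e-05, 0.000221, 6.94e-05, 0.0011 and 0.000399). For Cybb the 95% interval of the log2 difference ran from -6.42 to -3.82, and the difference was -4.50 without CAF-1 OFF replicate 1 and -6.24 without CAF-1 OFF replicate 2. For Cybb and Hvcn1 the order of the groups was therefore uninduced and IPTG control, which did not differ beyond their spread, then CAF-1 OFF, then HOXA9 OFF. For Cyba, Ncf1, Ncf4 and Rac2, uninduced, IPTG control and CAF-1 OFF cells did not differ in the test and HOXA9 OFF cells were above them.

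**Figure D3:**
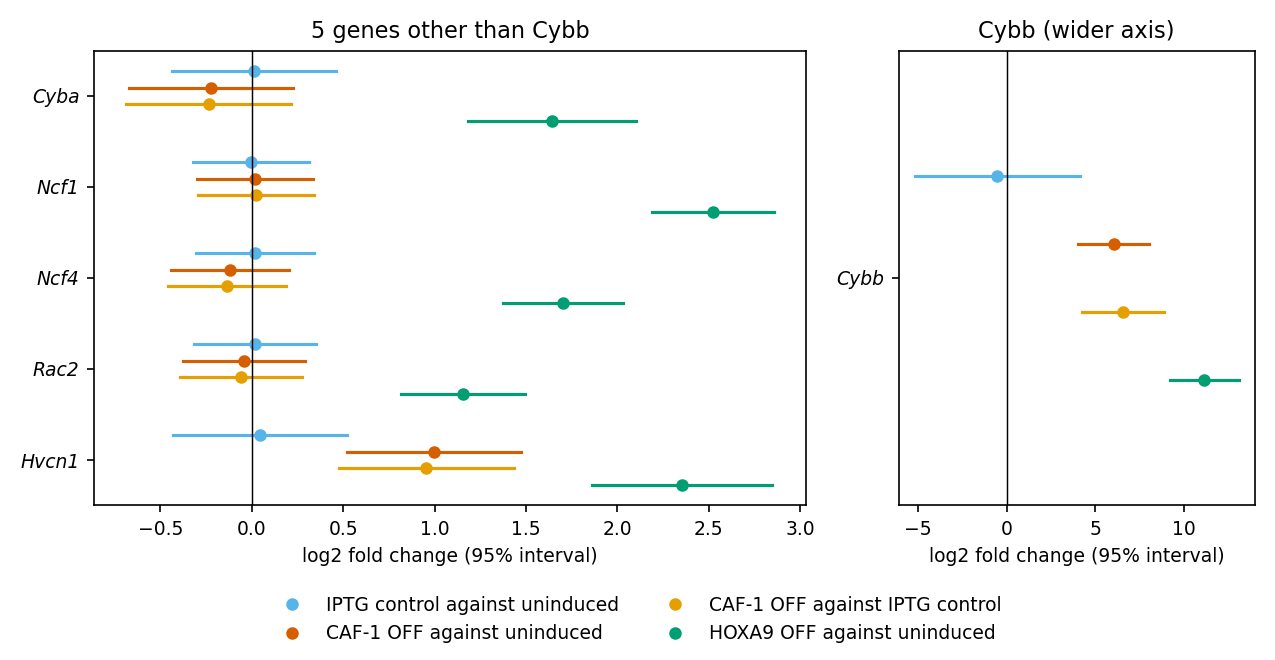
Log2 fold changes (points) with 95% intervals (lines) from the edgeR fit of all 8 libraries, for IPTG control, CAF-1 OFF and HOXA9 OFF against uninduced and CAF-1 OFF against IPTG control; Cybb has its own, wider axis. Intervals of CAF-1 OFF exclude 0 for Cybb and Hvcn1 and include it for Cyba, Ncf1, Ncf4 and Rac2.

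Ncf4 and Rac2 share chromosome 15 and Ncf1 and Hvcn1 share chromosome 5, while Cybb and Cyba each lie on a chromosome with no other of the 6 genes (mm9, GENCODE vM1). Cybb spans chromosome X 9012378 to 9064897, Cyba chromosome 8 124948672 to 124956840, Ncf1 chromosome 5 134695923 to 134705495, Hvcn1 chromosome 5 122656813 to 122692306, Ncf4 chromosome 15 78075231 to 78093010 and Rac2 chromosome 15 78389599 to 78403213. All are protein-coding, with 6 to 13 exons in the longest transcript. For Hvcn1, 15.4% of exon bases overlap exons of Tctn1 on the other strand, and for Ncf1, 9.98% overlap Gtf2ird2. Whether counting used the strand was not stated. Tctn1 was at 5.01 to 10.3 CPM in all 8 libraries and was lower in HOXA9 OFF cells (edgeR FDR 0.00801, log2 fold change -0.83). Gtf2ird2 was at 29.7 and 31.0 CPM in uninduced and 64.8 and 60.2 CPM in HOXA9 OFF cells. In 50-base windows, 100% of the longest transcripts of Cyba, Cybb and Ncf4 and 98.9% of that of Rac2 was found in no other protein-coding gene. The share was lower for Ncf1, at 93.5%, with the rest shared with Gtf2ird2, and lowest for Hvcn1, at 81.8%, with the rest shared with Tctn1.

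Further parts of the oxidase were followed as well. Of 3 further components (Rac1, Rap1a and BC017643, now named Cybc1, which helps to fold the membrane heterodimer), 0 were called by edgeR on CAF-1 suppression and 2 were called higher on HOXA9 inactivation, with median log2 fold changes of 0.17 and 0.79. Of all tested genes, CAF-1 suppression raised 10.5% and HOXA9 inactivation 25.2%. On CAF-1 suppression their unadjusted p was 0.0657 to 0.128, so 0 of 3 were under 0.05, and DESeq2 also called 0. BC017643 and Rap1a rose in HOXA9 OFF cells by 1.01 (FDR 0.00126) and 0.79 (FDR 0.000381). Rac1, named after its values were seen, changed by 0.44 (FDR 0.00865), less than 1.5-fold. The other catalytic subunits and their partners (Nox1, Nox3, Nox4, Noxo1, Noxa1, Duox1, Duox2, Duoxa1, Duoxa2) had at most 10 counts in any library, and 0 of these 9 passed the filter.

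Upstream of the oxidase act the kinases, lipid kinases and Rac exchange factors that phosphorylate or recruit its parts. Of 18 such activators, CAF-1 suppression gave 2 calls higher and 0 lower and HOXA9 inactivation 10 higher and 2 lower, with medians of 0.21 and 1.08 on the log2 scale. For comparison, CAF-1 suppression raised 10.5% and lowered 3.5% of all tested genes, HOXA9 inactivation raised 25.2% and lowered 22.1%, and the median over all tested genes was 0.01 each time. The 2 of 18 in CAF-1 OFF cells were thus near the share over all genes. Prkcb, a protein kinase C that phosphorylates the Ncf1 product, was at 30.5 and 39.3 CPM in uninduced, 83.2 and 126.4 in CAF-1 OFF and 132.2 and 143.7 in HOXA9 OFF cells. It rose in both, by 1.59 (edgeR FDR 0.00568, but 0.0566 without uninduced replicate 1) and 1.98 (FDR 0.000163). Prkcd, another such kinase, was at 195.0 and 196.9 CPM in uninduced and 763.4 and 767.6 in HOXA9 OFF cells, a change of 1.97, and at 181.0 and 184.3 in CAF-1 OFF cells. Pik3r5, a regulator of a phosphoinositide kinase, rose by 4.97 in HOXA9 OFF cells and Pak1, a Rac-dependent kinase, by 2.36. Prkca, named after its values were seen, moved both ways: it was at 44.7 and 58.7 CPM in uninduced, 90.7 and 81.0 in CAF-1 OFF (0.73, FDR 0.0196) and 14.2 and 12.9 in HOXA9 OFF cells (-1.93, FDR 6.07e-05). Its call in CAF-1 OFF cells was lost without uninduced replicate 1 (FDR 0.114), CAF-1 OFF replicate 1 (0.0964) or CAF-1 OFF replicate 2 (0.0970).

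Enzymes that remove superoxide and peroxide, or supply the thiols for it, were followed too. Of 17 listed, 16 were tested. CAF-1 suppression gave 1 call in each direction and HOXA9 inactivation 3 higher and 5 lower, with medians of -0.17 and -0.28 against 0.01 over all tested genes. These counts stand beside 10.5% of all genes raised and 3.5% lowered by CAF-1 suppression and 25.2% and 22.1% by HOXA9 inactivation, and nothing is read from them about the list. In HOXA9 OFF cells the peroxiredoxin gene Prdx5 rose by 2.15 on the log2 scale, from 442.7 and 336.7 to 1883 and 1587 CPM, and Gsr, glutathione reductase, by 2.06. Prdx4 fell by 1.63 there, from 121.4 in each uninduced library to 33.1 and 45.2 CPM. Slc7a11, the cystine importer, was at 176.7 and 147.8 CPM in uninduced cells. CAF-1 OFF had 294.6 and 358.0 CPM (1.01, edgeR FDR 0.0125) and HOXA9 OFF 72.9 and 63.2 CPM (-1.25, FDR 0.000796). The call in CAF-1 OFF cells was lost without either uninduced replicate (FDR 0.0653 and 0.0692) and without CAF-1 OFF replicate 2 (0.100).

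Among 12 transcription factors known from studies of oxidase genes, 11 were tested. CAF-1 suppression gave 2 calls higher and 1 lower, and HOXA9 inactivation 7 higher and 2 lower. The 7 include Hoxa9, at 234.3 to 234.6 CPM in uninduced and 449.5 to 480.9 in HOXA9 OFF cells. A legend of the study assigns its RNA-seq reads to the ER-HOXA9 transgene and not to the endogenous gene. With Hoxa9 included, the medians were 0.43 and 1.29 on the log2 scale, against 0.01 over all tested genes in both comparisons. Of all tested genes, 10.5% and 3.5% were called higher and lower in the first comparison and 25.2% and 22.1% in the second. Sfpi1, which encodes PU.1 and is now named Spi1, was at 188.8 and 144.5 CPM in uninduced cells. CAF-1 suppression brought 201.6 and 247.1 CPM, a change of 0.43 that did not pass the test (edgeR FDR 0.127). It rose to 795.1 and 661.7 CPM in HOXA9 OFF cells (2.13, FDR 6.46e-05). Irf8, a partner of PU.1, was at 36.0 and 27.0 CPM in uninduced, 39.9 and 86.6 in CAF-1 OFF (1.01, FDR 0.0665) and 134.0 and 132.8 in HOXA9 OFF cells (2.08, FDR 0.00124). The CAF-1 OFF value of Irf8 moved with each CAF-1 OFF library left out: it was 1.44 without CAF-1 OFF replicate 1 (FDR 0.0138, called) and 0.34 without CAF-1 OFF replicate 2 (FDR 0.412). It was also called by DESeq2 (FDR 0.0077) and by edgeR with no filter on low counts (FDR 0.0295).

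Cebpd, a C/EBP factor, rose by 3.06 in HOXA9 OFF cells. Meis1, the cofactor of HOXA9, fell by 2.35 there and by 0.89 in CAF-1 OFF cells (edgeR FDR 0.0333). That second call was lost without either uninduced replicate (FDR 0.0698 and 0.155) or CAF-1 OFF replicate 2 (0.209). Cebpe, the C/EBP factor of late granulocyte stages, was named after its values were seen because it was called in both. It was at 123.2 and 73.2 CPM in uninduced, 277.0 and 422.9 in CAF-1 OFF (1.83, FDR 0.0126) and 431.3 and 280.3 in HOXA9 OFF cells (1.86, FDR 0.00215). Its call in CAF-1 OFF cells was lost without either uninduced replicate (FDR 0.0527 and 0.0634) or CAF-1 OFF replicate 2 (0.0968).

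**Figure D4:**
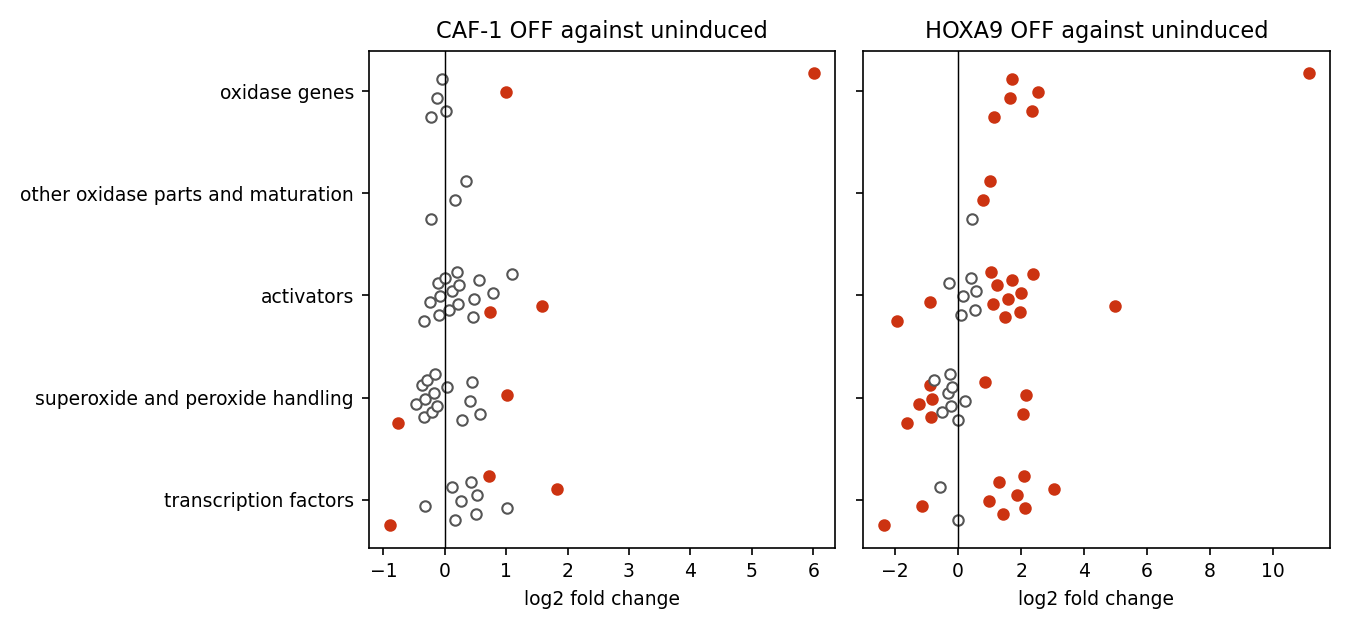
Log2 fold change over uninduced cells of the 6 oxidase genes and of the tested genes of 4 lists, in CAF-1 OFF (left) and HOXA9 OFF cells (right); filled points were called at FDR under 0.05 and 1.5-fold or more, open points were not, vertical offsets only separate points, and the panels have different x axes. Filled points were 2 of 6 oxidase genes on the left and 6 of 6 on the right.

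Markers of other blood cell types were followed beside the oxidase genes. Their calls are to be read against 10.5% of all tested genes called higher by CAF-1 suppression and 25.2% by HOXA9 inactivation. The summed level of 8 neutrophil markers was 49.6 to 67.3 CPM in uninduced, 49.2 to 70.9 in IPTG control, 1156 and 2039 in CAF-1 OFF and 8040 and 5473 in HOXA9 OFF cells. Of the 8, 5 were called higher in CAF-1 OFF and 8 in HOXA9 OFF cells, and none was at 0. Most of the sum in CAF-1 OFF cells was Mmp8, at 1090 and 1936 CPM, while HOXA9 OFF cells had less of it, at 556.1 and 376.0 CPM (log2 difference of CAF-1 OFF from HOXA9 OFF 1.70, edgeR FDR 0.00342). Of 9 monocyte or macrophage markers, 2 of 7 tested were called higher in CAF-1 OFF and 6 of 7 in HOXA9 OFF cells, with sums of 385 to 549 CPM in uninduced, 239 to 515 in CAF-1 OFF and 1177 to 1992 in HOXA9 OFF cells. Ccr2 made up most of this sum in uninduced cells, at 330.9 and 521.7 CPM, and was at 463.8 and 158.8 after CAF-1 suppression, a log2 fold change of -0.45 (edgeR FDR 0.541). The other 6 tested markers had log2 fold changes above 0 in CAF-1 OFF cells, and the median of the 7 was 1.69. The HOXA9 OFF libraries differed in macrophage markers: C1qb, a complement subunit, was at 0.434 CPM in replicate 1 and 120.7 in replicate 2, C1qc at 0.163 and 46.9, and Cd68 at 47.2 and 234.2. Without either HOXA9 OFF library, 6 oxidase genes were still called over uninduced cells. In each library 0 to 4 of the 9 were at 0. The 4 eosinophil markers summed to 489 to 1074 CPM in uninduced, 1134 to 1322 in CAF-1 OFF and 7385 to 12093 in HOXA9 OFF cells. The 5 megakaryocyte markers summed to 25.2 to 27.5 CPM in uninduced, 28.0 to 31.1 in IPTG control, 193.5 to 218.4 in CAF-1 OFF and 126.3 to 131.3 in HOXA9 OFF cells, and 4 of 5 were called higher in CAF-1 OFF cells. The 5 mast cell or basophil markers summed to 149.3 to 201.6 CPM in uninduced, 141.1 to 195.7 in IPTG control, 658 to 1051 in CAF-1 OFF and 164.2 to 222.2 in HOXA9 OFF cells, with 2 of 4 tested called higher in CAF-1 OFF cells. Megakaryocyte and mast cell or basophil sums were thus higher in both CAF-1 OFF libraries than in any library of the other groups. So was the sum of 5 erythroid markers, at a low level, with 5.85 to 6.52 CPM in CAF-1 OFF and 1.98 to 3.20 elsewhere, and 2 of 3 tested were called higher in CAF-1 OFF over uninduced cells. The 6 markers of B cells, which also express Hvcn1, summed to 131 to 153 CPM in uninduced, 121 to 167 in CAF-1 OFF and 58.7 to 68.2 in HOXA9 OFF cells, with at most 2 counts of Ms4a1. Of 4 tested, 1 was called higher in CAF-1 OFF over uninduced cells. Over IPTG control cells it was 2, beside 9.56% of all tested genes. HOXA9 inactivation raised 1 and lowered 2. Cd79a was at 2.09 to 2.27 CPM in uninduced and 15.3 to 15.5 in CAF-1 OFF cells. Mean CPM there was 97.4 and 96.4 for Ebf1 and 42.1 and 30.3 for Cd79b. The part of these cell types in the oxidase values was not tested.

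Finally, each oxidase gene was set beside the 9838 genes whose log2 CPM averaged 2 or more, by the root mean square difference of log2 CPM over the 8 libraries after centring on uninduced cells. The lowest differences from Cybb were those of Chi3l3 (0.51), S100a9 (0.56) and S100a8 (0.99), and those from Cyba were Rab32 (0.08), Ncf4 (0.11) and Aldh2 (0.11). Hvcn1 was closest to Pag1 (0.13), Tmem2 (0.15) and Dgka (0.16), Ncf1 to Man2b1 (0.08), Ncf4 to Ints12 (0.07) and Rac2 to Stk38 (0.05). Chi3l3 was at 9.60 ± 4.92 CPM in uninduced, 321.9 ± 228.9 in CAF-1 OFF and 8918 ± 1619 in HOXA9 OFF cells (SD, n = 2). Ranked by closeness to Cyba, Cybb was number 9838 of 9838, with a difference of 5.28, while Cyba was number 1084 by closeness to Cybb. This measure grows with the size of a change, and Cybb was number 9831 to 9838 from each of the other 5 genes.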

How the data were processed

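Total RNA was extracted with an RNeasy kit and, per the study's methods, sequenced from directional NEBNext libraries. The authors used STAR for alignment to mm9 and HTSeq for counting; the annotation version and strand setting are not given in the sources used here. The deposited values are raw counts per gene symbol, 1 file per library, and 5 summary rows per file were kept out of the genes. Groups and replicate numbers came from the labels, which do not say that replicates are separate cultures or sub-clones, so p-values measure only the spread between these libraries, which may be technical.

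Counts were fitted with edgeR 4.0.16 in R 4.3.3: filterByExpr, TMM (factors 0.895 to 1.06), 1 quasi-likelihood fit of all 8 libraries with a mean per group, with p-values adjusted by Benjamini-Hochberg over the 13080 genes tested. A gene was called at an FDR under 0.05 with at least a 1.5-fold change. A prior count of 2 went into log2 CPM. The code was tested on simulated data. The biological coefficient of variation was 18.9%, and replicates differed by more than sampling noise (chi-square per degree of freedom 16.6 to 78.2). Alternatives were other scaling, filters, tests (DESeq2 1.42.0, glmTreat), thresholds and samples, the replicate number as a block and each library left out; IPTG control as the reference for HOXA9 OFF was chosen after seeing the data.

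The 6 genes, the gene lists and the tests were chosen with earlier results of these data known. All 6 were named. Of a list, at most 4 genes called in CAF-1 OFF or HOXA9 OFF against uninduced, whose log2 CPM averaged 2 or more, were named by absolute log2 fold change in HOXA9 OFF, plus genes a result turns on; 1 listed gene is not reported here. The Mmp8, Chi3l3 and overlapping gene values serve such results. Lengths and coordinates are from GENCODE vM1 (mm9) and promoters from RefSeq (GRCm38.p6). Figures were drawn with matplotlib 3.10.9.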

Additional observations from a re-analysis of the deposited data

Results flagged for a closer look

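All 6 oxidase genes differed between the effects of CAF-1 suppression and HOXA9 inactivation, as tested directly in the edgeR fit. Both effects share the uninduced libraries, so the difference is that of CAF-1 OFF from HOXA9 OFF cells. The log2 difference was -5.12 for Cybb (FDR 0.000247), -2.51 for Ncf1 (2.88e-05), -1.87 for Cyba (0.000221), -1.83 for Ncf4 (6.94e-05), -1.36 for Hvcn1 (0.0011) and -1.20 for Rac2 (0.000399). Both CAF-1 OFF libraries were below both HOXA9 OFF libraries for each gene. Outliers within a group could not be looked for with 2 libraries each.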

How the results depend on the processing

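Under the 18 alternatives to each comparison (19 for HOXA9 OFF against uninduced), the number of oxidase genes called stayed at 6 for HOXA9 OFF against uninduced, 6 for CAF-1 OFF against HOXA9 OFF and 0 for IPTG control against uninduced, and 0 values of a called oxidase gene changed sign. For CAF-1 OFF the number of 2 fell to 1 with glmTreat, and to 1 at an FDR of 0.01 with a 2-fold change, against uninduced and against IPTG control alike; Hvcn1 was the gene lost (glmTreat FDR 0.149 and 0.201). With each library left out, it ranged from 0 to 2 in both comparisons. Of 545 log2 fold changes of single oxidase genes under alternatives, 533 stayed on their side of the call and 12 lost the call. Among genes not called the sign could change: in CAF-1 OFF against uninduced, Cyba ran from -0.48 to 0.08, Ncf1 from -0.11 to 0.14, Ncf4 from -0.26 to 0.03 and Rac2 from -0.11 to 0.02, and all but Cybb also spanned 0 in IPTG control against uninduced. With the replicate block the number was 2, 2, 6, 0 and 6, as without it, and calls over all genes went from 1836 to 2123 in CAF-1 OFF against uninduced. Deviations of same-numbered libraries were correlated at 0.30 to 0.48 among uninduced, IPTG control and HOXA9 OFF, and at -0.04 to 0.08 between CAF-1 OFF and each of these. With 2 libraries a group and no label tying a number across groups, this does not settle whether the numbers pair the libraries, and the fit without the block was kept. Scaling by library size alone shifted the median over all tested genes in HOXA9 OFF against uninduced from 0.01 to -0.18 (log2). In CAF-1 OFF against uninduced, the number called higher ran from 0 to 3 for the activators and the transcription factors and from 0 to 2 for the peroxide enzymes, and the number called lower from 0 to 2 for the peroxide enzymes and from 0 to 1 for the transcription factors. At this depth Cybb in control cells rested on 2 to 7 counts per library.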
